A study of Homo sapiens with 16 samples.

Results

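The DNA repair and checkpoint genes described here are 34 genes of the Fanconi anaemia pathway, homologous recombination, mismatch repair and the damage checkpoint, listed by symbol. They are 34 of the 19974 protein-coding genes on chromosomes 1 to 22 and X. Histone marks at these genes were mapped by chromatin immunoprecipitation and sequencing (ChIP-seq) in Toledo, a cell line established from a diffuse large B-cell lymphoma. One group of cells received TP-064 at 5 uM over 6 days, and the other only DMSO, the solvent, for the same time. TP-064 blocks CARM1, an enzyme that methylates arginines in histones and other proteins. The antibodies were against H3K27ac, H3K4me1 and H3K4me3, and each mark and treatment had 2 libraries, which gives 12 peak lists. All libraries come from 1 cell line, and the labels do not say whether the libraries of a group are separate cultures. Every TP-064 library carries the label of lane 4 and every DMSO library that of lane 3, and an effect of the lane cannot be told apart from one of the treatment.

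Cells use these genes to find and mend broken or crosslinked DNA. The Fanconi core complex attaches ubiquitin to the FANCD2 and FANCI pair at crosslinks, and BRCA1, PALB2, BRCA2, RAD51B, RAD51C, RAD51D, XRCC2 and XRCC3 take part in repair of broken ends by homologous recombination. ATM and ATR are kinases that signal breaks and stalled replication to CHEK2 and CHEK1, and MSH6 and PMS2 belong to the complexes that recognise and process mismatches. In germinal centre B cells, from which many lymphomas of this kind arise, somatic hypermutation and class switching make DNA lesions that pass through several of these pathways. Of the marks, H3K4me3 sits at promoters, H3K4me1 mainly at enhancers and on the flanks of promoters, and H3K27ac at promoters and enhancers in use.

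A gene was counted as carrying a mark in a library when a deposited peak lay within 2 kb of either of its ends (hg38, RefSeq gene coordinates of GRCh38.p14). A loss was called where neither TP-064 library but both DMSO libraries had such a peak, a gain in the reverse case, and a mark was kept where all 4 libraries had one. The lists hold positions only, so the read depth is unknown, and a site without a peak may still hold signal too weak to be called.

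Of the 34 genes, 5 lost H3K27ac. They were FANCC of the Fanconi core complex, the kinase ATM, the kinase CHEK1, the ATR activator TOPBP1, and MSH6 of the mismatch sensor. The promoter stretches of these 5 genes and of FANCG, the only one of the 34 called kept, are shown. At the 5 genes the DMSO peaks lay over or next to these stretches, while the peak that made FANCG kept lay at another gene's start. Each is the 250 bases before the start site, read 5′ to 3′ on the gene's strand, from RefSeq (GRCh38.p14). Capitals mark letters that match a searched motif of E2F (TTTCGCGC, TTTGGCGC, TTTCCCGC or TTTGCCGC), of NF-Y (CCAAT) or of the cell cycle homology region, CHR (TTTGAA or TTCGAA), on either strand.
FANCC (chr9:95317710-95317959, minus strand): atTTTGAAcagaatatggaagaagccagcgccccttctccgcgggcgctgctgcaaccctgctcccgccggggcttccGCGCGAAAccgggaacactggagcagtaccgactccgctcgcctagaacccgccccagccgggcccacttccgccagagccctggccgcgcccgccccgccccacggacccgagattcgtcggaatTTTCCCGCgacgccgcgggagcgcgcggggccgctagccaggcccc
CHEK1 (chr11:125625974-125626223, plus strand): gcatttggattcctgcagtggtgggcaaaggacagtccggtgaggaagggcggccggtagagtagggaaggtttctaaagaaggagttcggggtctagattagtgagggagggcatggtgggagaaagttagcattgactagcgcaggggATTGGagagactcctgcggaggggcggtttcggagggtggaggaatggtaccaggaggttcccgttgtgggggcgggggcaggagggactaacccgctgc
TOPBP1 (chr3:133661942-133662191, minus strand): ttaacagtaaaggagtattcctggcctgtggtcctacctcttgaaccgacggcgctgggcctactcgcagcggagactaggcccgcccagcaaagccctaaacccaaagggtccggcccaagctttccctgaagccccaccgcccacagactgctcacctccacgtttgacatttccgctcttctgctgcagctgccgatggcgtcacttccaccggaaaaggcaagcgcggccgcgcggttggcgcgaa
MSH6 (chr2:47782895-47783144, plus strand): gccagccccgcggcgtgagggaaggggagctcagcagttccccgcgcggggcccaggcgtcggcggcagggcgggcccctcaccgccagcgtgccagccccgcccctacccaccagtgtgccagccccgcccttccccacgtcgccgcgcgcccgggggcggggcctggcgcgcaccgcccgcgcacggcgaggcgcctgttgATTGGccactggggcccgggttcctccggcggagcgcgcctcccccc
ATM (chr11:108222817-108223066, plus strand): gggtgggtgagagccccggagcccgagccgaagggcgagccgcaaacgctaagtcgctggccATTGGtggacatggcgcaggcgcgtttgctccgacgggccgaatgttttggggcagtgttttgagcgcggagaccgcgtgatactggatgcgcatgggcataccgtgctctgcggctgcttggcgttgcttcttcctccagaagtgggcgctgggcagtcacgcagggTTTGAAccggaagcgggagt
FANCG (chr9:35079943-35080192, minus strand): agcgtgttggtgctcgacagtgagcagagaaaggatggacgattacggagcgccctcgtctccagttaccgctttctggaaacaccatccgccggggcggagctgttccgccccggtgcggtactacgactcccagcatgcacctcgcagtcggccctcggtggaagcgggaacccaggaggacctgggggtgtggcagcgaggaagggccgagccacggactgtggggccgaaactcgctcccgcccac

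FANCC showed E2F letters at -172 to -165 and at -46 to -39 from the start site, and CHR letters at -248 to -243. CHEK1 and MSH6 each held 1 CCAAT in the printed stretch, and ATM held 1 CCAAT and 1 CHR. The E2F letters of TOPBP1 (-7 to 1) and of MSH6 (4 to 11) reach past the last printed base, so they are not capitalised above. None of these letters occurred in the printed stretch of FANCG. A match describes the sequence and is not a binding site.

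The H3K27ac lists held 4771 and 4595 peaks with TP-064, against 7885 and 4016 with DMSO, so the DMSO libraries differed more from each other than the TP-064 libraries did. At the 34 genes, 3 and 1 carried H3K27ac in the TP-064 libraries, against 22 and 7 in the DMSO libraries. As shares these were 8.82% and 2.94% with TP-064, against 64.7% and 20.6% with DMSO. Over all protein-coding genes the shares were 10.9% and 9.43% with TP-064, against 24.2% and 12.3% with DMSO. The share among the repair genes stood below that of all genes in both TP-064 libraries and above it in both DMSO libraries. H3K4me3 was present at 32 of the 34 genes in every library, more often than at all genes. Among genes with H3K4me3 in all 4 libraries, H3K27ac lay at 9.38% and 3.12% of the 32 repair genes with TP-064, against 68.8% and 21.9% with DMSO. Among all 9783 such genes the shares were 20.5% and 17.7% with TP-064, against 46.7% and 23.8% with DMSO. On this base the repair genes again stood below all such genes in both TP-064 libraries. They stood above them in DMSO replicate 1 only, and slightly below them in DMSO replicate 2. An exact permutation test of 2 libraries against 2 cannot give a p below 0.333, so no test was made of these shares.

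**Figure D1:**
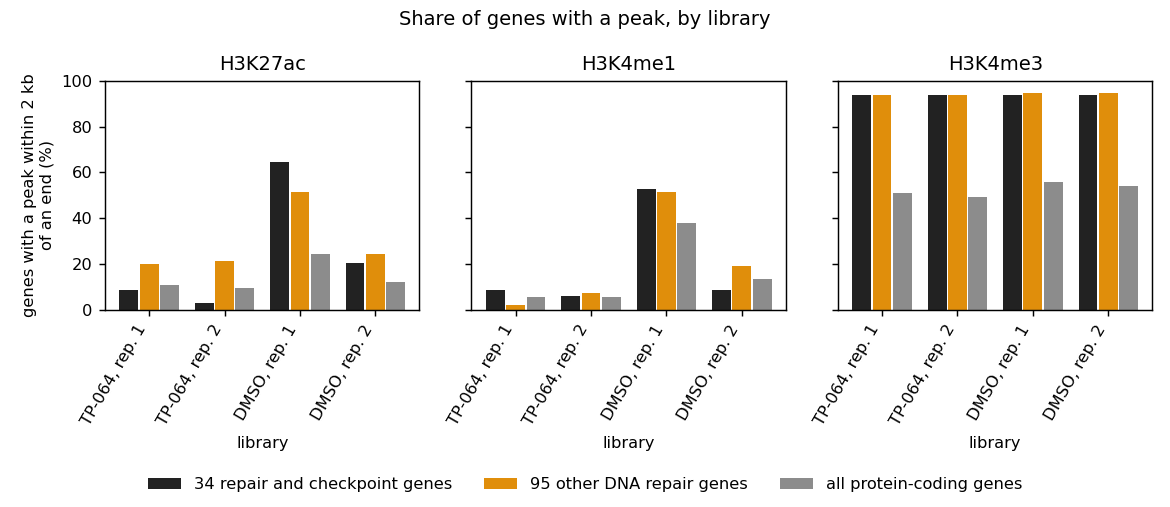
Percentage of genes with a peak within 2 kb of an end (y axis) in each library (x axis, TP-064 left of DMSO) for the 34 repair and checkpoint genes, 95 other DNA repair genes and all protein-coding genes, with 1 panel per mark. For H3K27ac the 34 genes stand at 8.82% and 2.94% with TP-064 and at 64.7% and 20.6% with DMSO; for H3K4me3 they stand at 94.1% in every library.

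FANCC encodes a subunit of the Fanconi core complex. Its H3K27ac peak had no counterpart in either TP-064 library, against widths of 1881 and 1371 bp in the DMSO libraries. The DMSO peaks lay over its start site, at chr9:95316532-95318412 and chr9:95316939-95318309, and touched no other gene's window. MSH6, a subunit of the mismatch sensor, likewise had no peak with TP-064, against 1702 and 1044 bp with DMSO, at chr2:47782338-47784039 and chr2:47782790-47783833. These peaks, too, covered the start site and touched no other gene. FANCC and MSH6 are the only losses that remain when peaks are restricted to those at the ends of 1 gene.

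CHEK1, the kinase that acts downstream of ATR, had no H3K27ac peak with TP-064, against 1911 and 1261 bp with DMSO (chr11:125624945-125626855 and chr11:125625273-125626533). The wider of these also touched the window of STT3A. TOPBP1 had none with TP-064, against 1478 and 1141 bp with DMSO (chr3:133660995-133662472 and chr3:133661123-133662263). Its start lies 57 bp from that of TF, the transferrin gene, on the opposite strand, and both peaks held the starts of both genes. ATM had none with TP-064, against 1962 and 834 bp with DMSO (chr11:108221824-108223785 and chr11:108221909-108222742). The ATM start lies 429 bp from that of NPAT, a regulator of histone gene transcription, and both peaks covered the NPAT start. The narrower ATM peak ended 325 bp short of the ATM start, so in DMSO replicate 2 the mark was called on the NPAT side only.

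**Figure D2:**
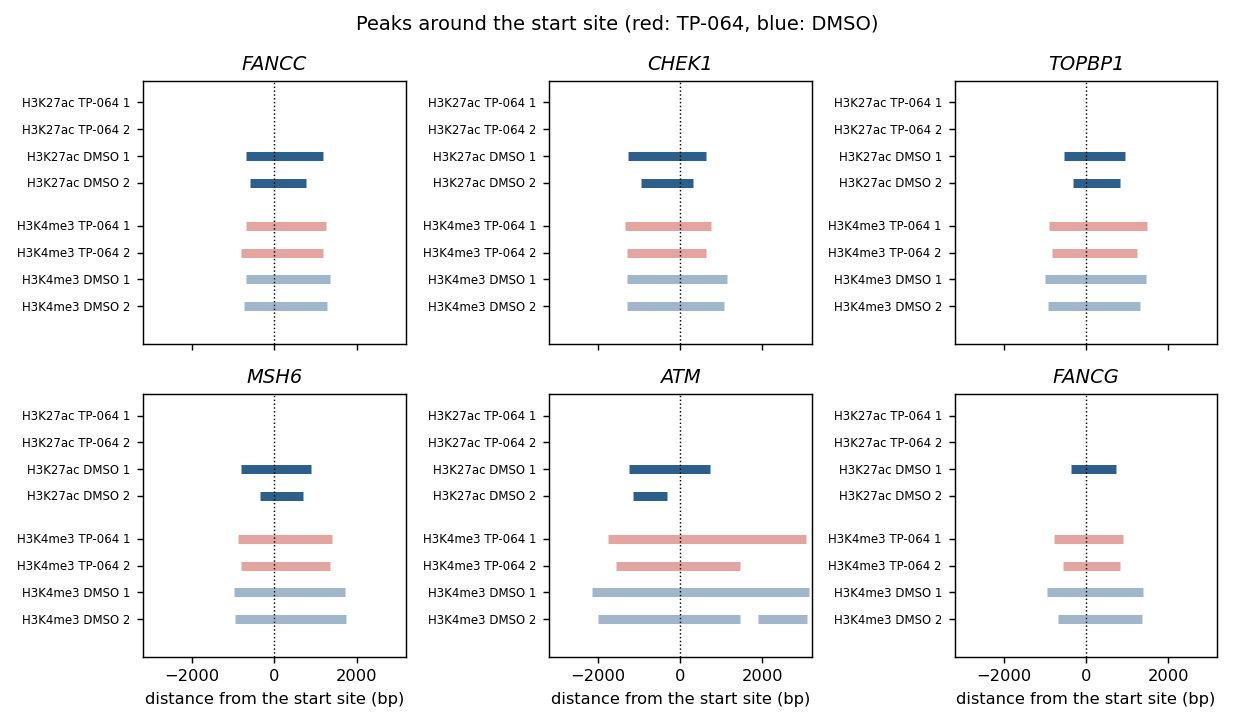
Extent of H3K27ac peaks (solid) and H3K4me3 peaks (pale) around the start site of 6 genes, as distance in bp along the gene's strand (x axis), with 1 row per library (TP-064 above DMSO, red and blue). The 5 genes that lost H3K27ac have no solid red bar, while pale bars of both colours are present throughout; the H3K27ac peak that made FANCG kept lies beyond its other end and outside the panel.

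FANCG, another core complex subunit, was the only gene of the 34 with H3K27ac in all 4 libraries. Its widths were 1176 and 1114 bp with TP-064, against 1188 and 1131 bp with DMSO, a log2 ratio of -0.02 (limma across all genes with a peak in all 4 libraries, adjusted p = 0.987). That peak lay at the start of VCP, a segregase gene that follows FANCG, and not at the FANCG start. At the FANCG start itself a peak was listed in DMSO replicate 1 only, at 1106 bp. No gene of the 34 thus had an H3K27ac peak in all 4 libraries at its own start site, among the 31 for which start sites were at hand.

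NBN, the sensor subunit of the MRN complex, had 1795 bp in TP-064 replicate 1 and no peak in TP-064 replicate 2, against 2190 and 1673 bp with DMSO. EXO1, a resection exonuclease, had 1195 bp in TP-064 replicate 1 and none in TP-064 replicate 2, against 2178 bp in DMSO replicate 1 and none in DMSO replicate 2. With FANCG, these are the 3 genes with any H3K27ac peak after TP-064. A further 14 genes carried H3K27ac in DMSO replicate 1 alone: FANCA, FANCE, BRCA1, BRCA2, PALB2, BRIP1, XRCC2, XRCC3, RAD54L, BLM, RAD50, ATR, CHEK2 and PMS2. Their state rests on the DMSO library with the longest list. The other 12 genes had no H3K27ac peak in any library, and no gene of the 34 gained H3K27ac.

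**Figure D3:**
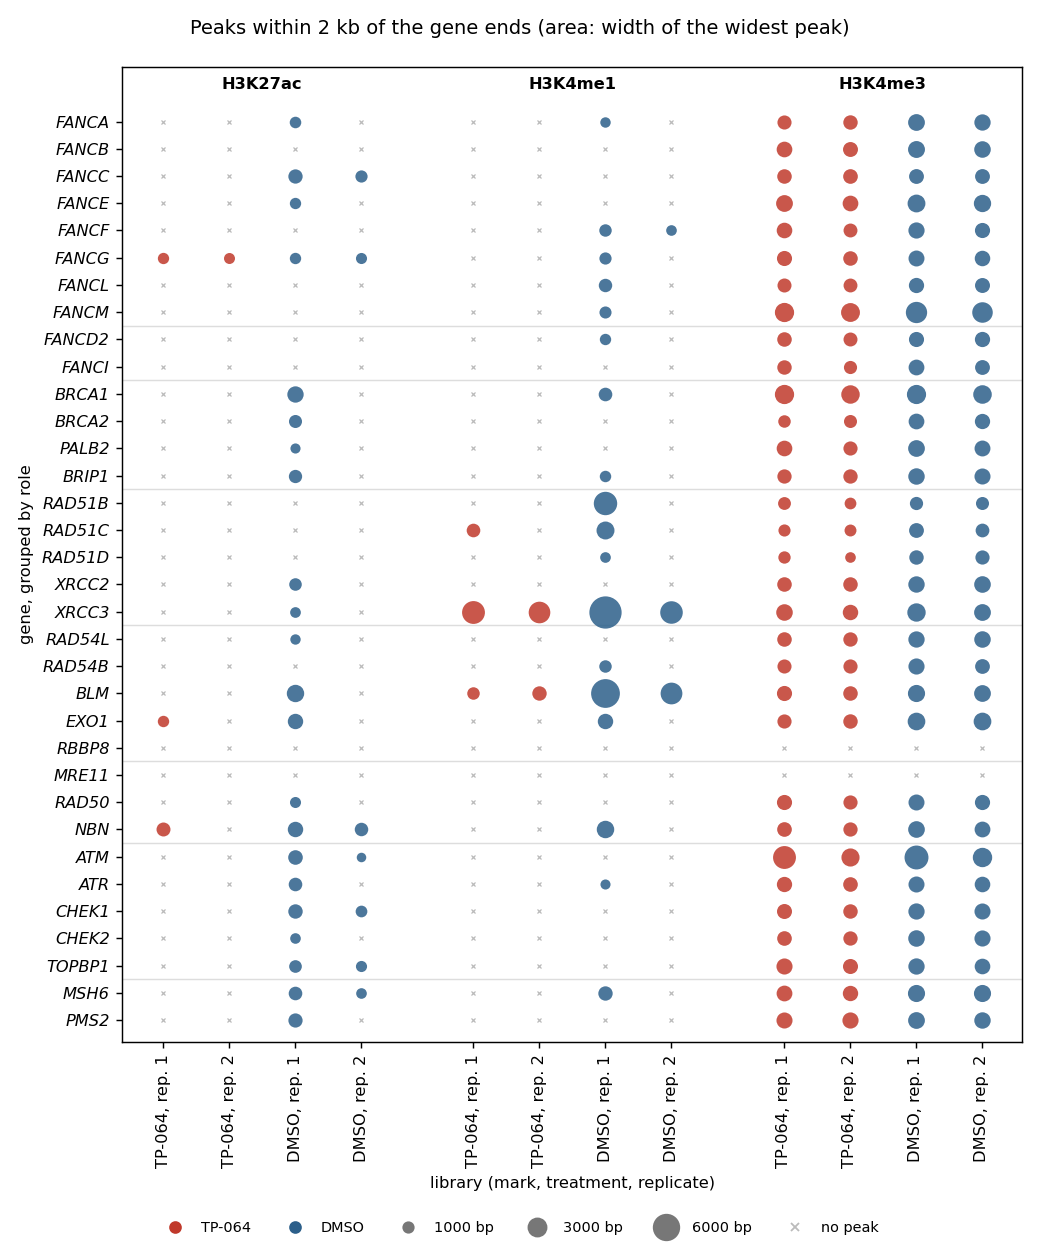
Peaks of the 3 marks within 2 kb of the ends of each of the 34 genes (y axis, grouped by role) in the 12 libraries (x axis, TP-064 left of DMSO); dot area is proportional to the width of the widest peak in bp and a cross stands for no peak. H3K27ac dots are found at 3 and 1 genes with TP-064 and at 22 and 7 with DMSO, while H3K4me3 dots fill 32 rows in every library.

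By role, all 5 checkpoint genes carried H3K27ac in DMSO replicate 1, and 3 of these in DMSO replicate 2 as well; none carried it with TP-064. All 4 of BRCA1, BRCA2, PALB2 and BRIP1 carried it in DMSO replicate 1 and in no other library. Among the 8 core complex genes, 1 and 1 carried it with TP-064, against 4 and 2 with DMSO. Some of these peaks lay at the start of a neighbour. They were the FANCG peaks with TP-064 and in DMSO replicate 2, at VCP, and the FANCE peak in DMSO replicate 1, at RPL10A. Of the 5 genes RAD51B, RAD51C, RAD51D, XRCC2 and XRCC3, 2 carried it, in DMSO replicate 1 only, and neither FANCD2 nor FANCI carried it in any library. Over all protein-coding genes 10.9% and 9.43% carried it with TP-064, against 24.2% and 12.3% with DMSO. Differences between these small groups were not tested.

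The 5 losses are 5 of the 7 genes of the list with H3K27ac in both DMSO libraries (71.4%). Over all protein-coding genes, 28.0% of those with the mark in both DMSO libraries lost it, 651 of 2329. Narrow peaks were lost more often than wide ones: the lost share was 60.5% in the decile of genes with the narrowest DMSO peaks and 2.58% in the widest. In DMSO replicate 1 the 22 repair genes with a peak had a median width of 1593 bp, against 1664.5 bp over all genes with a peak there. Of these 22, the 7 that both DMSO libraries marked had a median of 1881 bp, and no matching value over all genes is given. In DMSO replicate 2 the same 7 had a median of 1141 bp, against 1456 bp over all genes with a peak there. Genes in the same width deciles, weighted as the 7 are, lost the mark in 37.3% of cases. Of the 22 genes with a peak in DMSO replicate 1, 19 (86.4%) had none in either TP-064 library, against 51.3% of all genes with a peak there and 58.5% in the same width deciles. Both counts rest on the same TP-064 libraries and on DMSO replicate 1, so they are not independent.

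**Figure D4:**
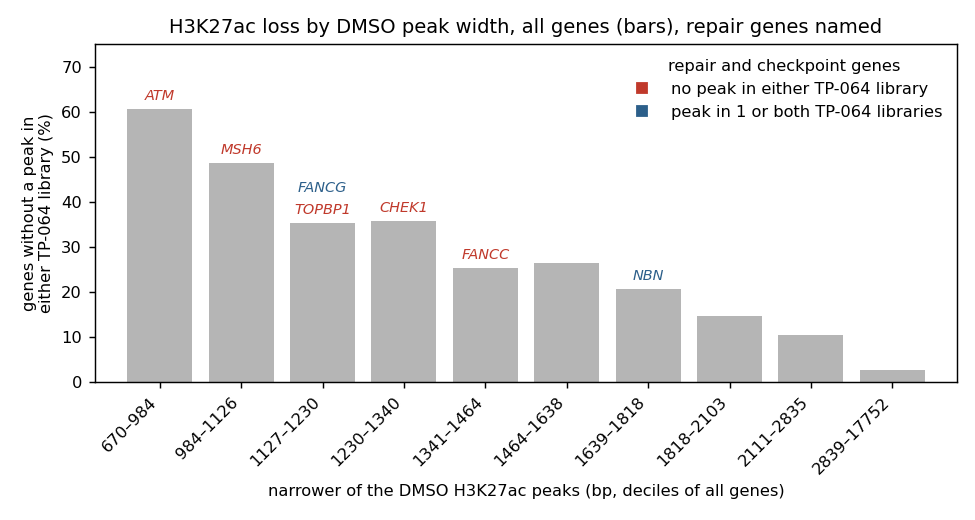
Percentage of genes without H3K27ac in either TP-064 library (y axis, bars) by decile of the narrower of their DMSO peaks in bp (x axis), over the 2329 genes that both DMSO libraries marked. The 7 repair and checkpoint genes are named above the bar of their decile, in red where the mark was lost; the 5 lost genes fall in the 5 deciles of narrowest peaks, where 25.3% to 60.5% of all genes lost it.

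The count of lost genes depended on the lists used. When each H3K27ac list was cut to its 4016 widest peaks, 3 and 1 of the 34 genes carried the mark with TP-064, against 8 and 7 with DMSO. Then 3 of 4 genes with the mark in both DMSO libraries lost it (FANCC, ATM and CHEK1), against 22.1% of all genes. With peaks at the ends of 1 gene only, 2 of 3 genes lost it, and no share over all genes is given for that setting to compare with. Without DMSO replicate 2, 19 of 22 lost it, against 51.3% of all genes with a peak in DMSO replicate 1, which repeats the count given above for that library.

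Among 95 other DNA repair genes, H3K27ac was present at 19 and 20 with TP-064, against 49 and 23 with DMSO. Here 5 of the 22 genes with the mark in both DMSO libraries lost it (22.7%), 14 kept it in all 4 libraries, and none gained it. The 5 were EME1, a subunit of a structure-specific nuclease, CLSPN, the adaptor through which ATR activates CHEK1, WEE1, a kinase that holds back mitotic entry, PRKDC, the kinase of end joining, and LIG1, a DNA ligase of replication and repair. WEE1 had no peak with TP-064, against 2492 and 2069 bp with DMSO, the widest lost peaks of these 5. CLSPN had none with TP-064, against 1189 and 876 bp with DMSO. The difference in lost share between the 34 genes and these 95 was not tested.

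H3K4me3 stayed where H3K27ac was lost. It was present at 32 of the 34 genes in every library (94.1%), while 51.0% and 49.2% of all genes carried it with TP-064, against 55.8% and 54.1% with DMSO. None of the 32 lost it, against 5.67% of all genes with the mark in both DMSO libraries, and none gained it. Of the 95 other repair genes, 1 of 90 lost it: POLL, a polymerase of end joining, had no peak with TP-064, against 1646 and 1333 bp with DMSO.

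The remaining 2 genes, RBBP8 and MRE11, which start the resection of broken ends, carried H3K4me3 at their start sites rather than at their gene ends. The RefSeq gene record of RBBP8 begins 19189 bp from the nearest listed start site and that of MRE11 18568 bp. At the start site RBBP8 had 2208 and 2093 bp of H3K4me3 with TP-064, against 2691 and 2569 bp with DMSO. MRE11 had 2273 and 2270 bp with TP-064, against 2746 and 3002 bp with DMSO. In both genes every TP-064 width was below every DMSO width, as it was at the gene ends in 82.5% of all genes with H3K4me3 in all 4 libraries. RAD51B, a homologous recombination gene, is the opposite case: 1518 and 1272 bp with TP-064, against 1606 and 1563 bp with DMSO, lay at its gene end, 3762 bp from the nearest listed start, and none at the listed starts.

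H3K4me3 peaks at the repair genes were narrower with TP-064. In 28 of the 32 genes both TP-064 widths were below both DMSO widths, and in none were both above; the other 4 overlapped. Over all 9783 genes with the mark in all 4 libraries, 82.5% were narrower in this sense and 0.511% wider. Median widths at the 32 genes were 2025.5 and 1916 bp with TP-064, against 2462.5 and 2345.5 bp with DMSO. Over all genes they were 2031 and 1863 bp with TP-064, against 2456 and 2297 bp with DMSO. The median log2 ratio of TP-064 over DMSO was -0.27 for the repair genes and -0.26 for all genes, so the narrowing of the group was that of the lists as a whole.

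In limma across those 9783 genes, with Benjamini-Hochberg adjustment and a threshold of 0.05, 10 of the 32 repair genes were called narrower (31.2%) and none wider, against 21.5% of all genes called narrower. The lowest adjusted p was that of EXO1, with 1845 and 1921 bp with TP-064, against 2868 and 2886 bp with DMSO (log2 ratio -0.61, SE 0.0959, limma adjusted p = 0.00697). BRCA2, a mediator of homologous recombination, had 1435 and 1561 bp with TP-064, against 2280 and 2145 bp with DMSO (log2 ratio -0.56, SE 0.116, limma adjusted p = 0.0178). In both genes the TP-064 widths lay below the DMSO widths without overlap. This held for 82.5% of all 9783 genes and uses the widths that gave the calls, so it adds no support to them.

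RAD51D, RAD51C and XRCC2, which take part in homologous recombination, gave 3 of the calls. RAD51D had 1399 and 1042 bp with TP-064, against 1914 and 1853 bp with DMSO, the largest fall of the list at a log2 ratio of -0.64 (limma adjusted p = 0.0302). RAD51C had 1354 and 1308 bp with TP-064, against 2022 and 1739 bp with DMSO (log2 ratio -0.49, limma adjusted p = 0.0352). XRCC2 had 1949 and 1934 bp with TP-064, against 2475 and 2545 bp with DMSO (log2 ratio -0.37, limma adjusted p = 0.0346). In all 3 the groups did not overlap, which is again the usual case over all genes. RAD51B and XRCC3, of the same role, did not pass, at log2 ratios of -0.19 and -0.27.

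The other 5 calls came from several roles. FANCA, a core complex subunit, had 1830 and 1911 bp with TP-064, against 2591 and 2449 bp with DMSO (log2 ratio -0.43, limma adjusted p = 0.0258). BLM, the helicase that dissolves recombination intermediates, had 2104 and 1941 bp with TP-064, against 2708 and 2588 bp with DMSO (log2 ratio -0.39, limma adjusted p = 0.0323). RAD54L, a motor protein of homologous recombination, had 1944 and 1898 bp with TP-064, against 2449 and 2513 bp with DMSO (log2 ratio -0.37, limma adjusted p = 0.0355). None of these 3 showed overlap between the groups, which likewise adds no support to the calls. BRIP1, a helicase that binds BRCA1, had 1875 and 1892 bp with TP-064, against 2493 and 2368 bp with DMSO (log2 ratio -0.37, limma adjusted p = 0.0377). CHEK2, the kinase downstream of ATM, had 1971 and 1884 bp with TP-064, against 2518 and 2390 bp with DMSO (log2 ratio -0.35, limma adjusted p = 0.0435).

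**Figure D5:**
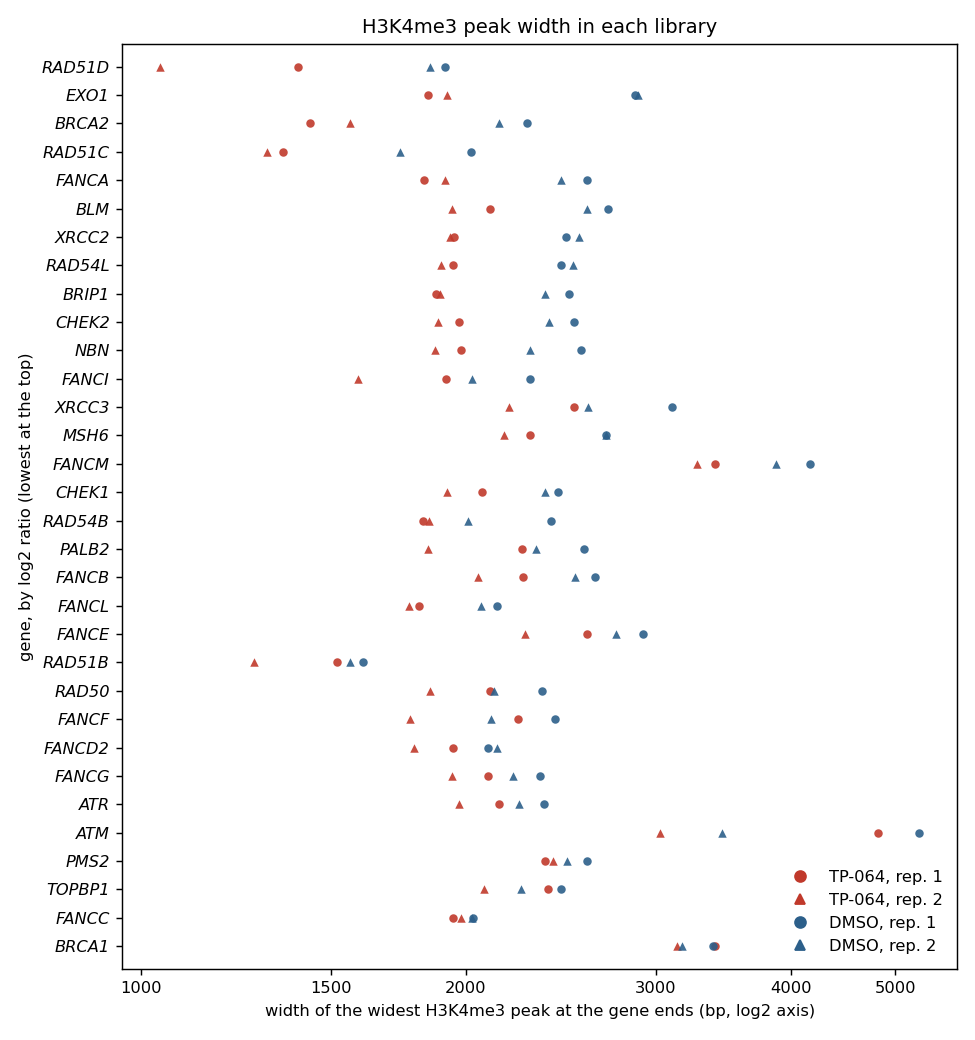
Width in bp (x axis, log2 scale) of the widest H3K4me3 peak at the ends of each of the 32 genes with the mark in all libraries (y axis, ordered by log2 ratio), with red points for TP-064, blue points for DMSO, circles for replicate 1 and triangles for replicate 2. RAD51D, EXO1 and BRCA2 stand at the top with log2 ratios of -0.64, -0.61 and -0.56; FANCC and BRCA1 stand at the bottom, near 0.

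Relative to the shift of the whole list the calls ended. With each library centred on its median, none of the 32 genes passed the limma test, and 1.9% of all genes were called narrower, 186 of 9783. An unadjusted limma p under 0.05 was found at 7 of the 32 genes and at 1876 of all 9783. Of the 7, BRCA2, RAD51D and EXO1 were narrower relative to the list (centred log2 ratios -0.28, -0.35 and -0.32). BRCA1, FANCC, TOPBP1 and PMS2 were wider relative to it (0.29, 0.24, 0.21 and 0.2). Without TP-064 replicate 1 the uncentred test called 20 of the 32 genes narrower (62.5%, against 46.1% of all genes). Without TP-064 replicate 2 it called 3 (9.38%, against 11.4%), without DMSO replicate 1 only EXO1 (3.12%, against 6.0%), and without DMSO replicate 2 it called 5 (15.6%, against 20.8%). The called share of the repair genes was thus above that of all genes in 1 of these 4 fits and below it in the other 3.

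The genes that lost H3K27ac were not the ones with the largest fall in H3K4me3 width. FANCC had 1944 and 1980 bp with TP-064, against 2029 and 2028 bp with DMSO (log2 ratio -0.05, limma adjusted p = 0.685), and TOPBP1 had 2384 and 2080 bp with TP-064, against 2450 and 2250 bp with DMSO (log2 ratio -0.08, limma adjusted p = 0.548). ATM had 4819 and 3024 bp with TP-064, against 5267 and 3454 bp with DMSO (log2 ratio -0.16, SE 0.237). CHEK1 and MSH6 were both at -0.27, near the median of all genes (-0.26), with limma adjusted p-values of 0.0781 and 0.0627. None of the 5 passed the test, which called 21.5% of all genes narrower.

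BRCA1 has separate listed start sites, and its gene end lies at the one it shares with NBR1, 82 bp from the NBR1 start on the opposite strand. There H3K4me3 was 3406 and 3141 bp wide with TP-064, against 3387 and 3170 bp with DMSO, a log2 ratio of 0 (limma adjusted p = 0.981). At the other listed BRCA1 start, at 43125364 on chromosome 17, it was 1890 and 1911 bp wide with TP-064, against 2779 and 2638 bp with DMSO. The groups did not overlap at the second site, which the gene-end test did not cover. At gene ends the same held for 82.5% of all genes with H3K4me3 in all 4 libraries. H3K27ac was listed at the shared start in DMSO replicate 1 (2457 bp) and at the other start in no library. FANCE was similar: its only H3K27ac peak, 1180 bp in DMSO replicate 1, lay at the start of RPL10A, a ribosomal protein gene. At the FANCE start itself there was no H3K27ac in any library. H3K4me3 there was 1603 and 1348 bp with TP-064, against 1806 and 1877 bp with DMSO. The gene-end test of FANCE used the wider RPL10A peak. For FANCG it used the VCP peak, except in DMSO replicate 1, where the FANCG start peak was wider. In limma at their own starts, FANCG passed (log2 ratio -0.51, limma adjusted p = 0.0326) and FANCE did not (log2 ratio -0.32, limma adjusted p = 0.0877).

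H3K4me1 was listed at 3 and 2 of the 34 genes with TP-064, against 18 and 3 with DMSO, from lists of 4094 and 4242 peaks with TP-064 and 25058 and 9673 with DMSO. As shares these were 8.82% and 5.88% with TP-064, against 52.9% and 8.82% with DMSO. Over all genes they were 5.44% and 5.46% with TP-064, against 37.8% and 13.4% with DMSO. Of the 34 genes, 14 carried it in DMSO replicate 1 alone, the library with the longest list. FANCF, a core complex adaptor, was the only gene of the 3 with the mark in both DMSO libraries to lose it, against 55.4% of all such genes. It had no peak with TP-064, against 1427 and 1043 bp with DMSO. Both DMSO peaks also touched the window of GAS2, and no H3K4me1 loss remained with peaks at the ends of 1 gene only. FANCF kept H3K4me3, at 2236 and 1777 bp with TP-064, against 2417 and 2110 bp with DMSO. No gene gained H3K4me1. Of the 95 other repair genes, 10 of 17 lost it.

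H3K4me1 was kept at XRCC3 and BLM, in both cases at the end away from the start site. At the far end of XRCC3, in a peak that also touches the window of KLC1, the widths were 4801 and 4302 bp with TP-064, against 9576 and 4679 bp with DMSO (log2 ratio -0.56, limma adjusted p = 0.307). At the far end of BLM they were 1439 and 1908 bp with TP-064, against 7617 and 4355 bp with DMSO (log2 ratio -1.80, SE 0.413, limma adjusted p = 0.0531). Both TP-064 peaks of BLM were below both DMSO peaks, yet neither gene passed the threshold, against 8.96% of the 636 genes tested that were called narrower. Without TP-064 replicate 2, or without DMSO replicate 2, BLM passed it, but calls over all genes of the mark rose in these fits too. Each of them leaves a group with a single library. RAD51C was the only other gene with H3K4me1 after TP-064, at 1707 bp in TP-064 replicate 1 and none in TP-064 replicate 2, against 2965 bp in DMSO replicate 1 and none in DMSO replicate 2.

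Promoter sequence was described beside that of all promoters. RefSeq promoter sequences (300 bases, 250 before and 50 after the start) matched 31 of the 34 genes. FANCI, NBN and RAD54B were not among them. E2F letters, as spelled out above and searched on both strands, occurred in 8 of the 31 (25.8%), against 4.45% of 15812 promoters. The 8 were FANCA, FANCC, FANCD2, XRCC2, EXO1, TOPBP1, MSH6 and PMS2. FANCC, TOPBP1 and MSH6 are among the 5 genes that lost H3K27ac. The share with E2F letters among all genes that lost the mark is not given, and a link of the letters to the loss was not tested.

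The cyclic AMP response element TGACGTCA occurred in 4 (12.9%), in RAD51C, XRCC2, EXO1 and PMS2, against 2.56% of all promoters. CCAAT occurred in 14 (45.2%), against 36.4%. CHR letters occurred in 3 (9.68%), against 13.5%, and ACTACAA, a ZNF143 motif, in 1 (3.23%), against 3.14%. The median GC content was 64.3% for the repair genes and 62.7% for all promoters, and the observed over expected CpG ratio was 0.925 and 0.762. Base composition therefore differs between the groups, and its part in the motif shares was not tested.

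Another gene started on the opposite strand within 1 kb of 11 of the 31 start sites (35.5%), against 12.3% of all genes. The pairs were FANCB with MOSPD2, BRCA1 with NBR1, BRCA2 with ZAR1L, PALB2 with DCTN5, RAD51C with IGBP1C, XRCC3 with ZFYVE21, MRE11 with ANKRD49, ATM with NPAT, CHEK2 with HSCB, TOPBP1 with TF and PMS2 with AIMP2. The distances between the starts ran from 57 bp for TOPBP1 to 528 bp for RAD51C. At such promoters a peak cannot be given to one gene alone. PMS2, CHEK2 and FANCD2 also have near-identical pseudogene copies elsewhere in the genome, and how reads that match several places were handled is not given in the sources used here.

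Marker genes served as a check of the B-cell label. H3K4me3 lay at 5 and 5 of 6 B-cell markers with TP-064, against 6 and 6 with DMSO, and H3K27ac at 4 and 4 with TP-064, against 6 and 5 with DMSO. No H3K4me3 peak was listed at any of 5 T-cell, 4 myeloid or 4 epithelial markers. H3K27ac was listed at 1 T-cell marker, CD2, in 3 of the 4 libraries, and at no myeloid or epithelial marker.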

How the data were processed

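ChIP-seq peak positions of 3 histone marks in 12 libraries of Toledo cells were compared; the 4 input samples were not used here. The submitters' processing notes name Bowtie 1.1.2, MACS 1.4.2 and hg38, and peak thresholds, filters and the role of inputs were not given in the sources used here. For each library the authors deposited 1 list with 3 columns (chromosome, start, end) and no score, signal or read count, so depth is unknown and precision rests on 2 libraries a group. Since nothing says that libraries are separate cultures, p-values reflect the spread between libraries, which may be technical.

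Peaks within 2 kb of either end of RefSeq genes (GRCh38.p14) were found with Python 3.11.15 and pandas 2.3.3, with at least 1 bp of overlap. The log2 width of the widest peak per gene was fitted for genes with a peak in all 4 libraries in limma 3.58.1 (R 4.3.3, variance trend, no covariate), with Benjamini-Hochberg adjustment over all genes of the mark and a threshold of 0.05. Both steps were tested on simulated data. Motifs were searched in RefSeq promoters of 300 bases; a gene with several listed starts was represented by the outermost. The genes, the lists and the motifs were chosen with earlier results of these data known. All 34 genes could be named. Values in every library were given for genes that lost a mark, had H3K27ac in both DMSO libraries or passed limma, and the values given for other genes, such as BRCA1, FANCE and RBBP8, were chosen after they were seen. Alternatives were other windows, whole genes, start sites, a 200 bp overlap, lists of equal length, peaks at 1 gene only, other width measures, a replicate block and leaving out each library. The limma fit at start sites was added after seeing the data.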

Additional observations from a re-analysis of the deposited data

How the results depend on the processing

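Read depth is unknown, and the numbers of genes with H3K27ac or H3K4me1 were highest in DMSO replicate 1, whose lists were the longest. The numbers that lost these marks were unchanged without that library and rose without DMSO replicate 2. The number of repair genes that lost H3K27ac was 5 of 7, against 28.0% of all such genes. It was 3 of 4 with lists of equal length (against 22.1%) and 2 of 3 with peaks at the ends of 1 gene only. When 1 library was left out it was 5 to 19. The 19, of 22, came without DMSO replicate 2, where 51.3% of all genes with a peak in DMSO replicate 1 lost it. That setting repeats the count of genes with a peak in DMSO replicate 1 and none with TP-064. With windows of 1 or 5 kb or a 200 bp overlap the number stayed at 5 of 7. Over whole genes it was 5 of 8, and at start sites 5 of 5, among the 31 genes with listed starts. The number that lost H3K4me1 was 1 of 3, against 55.4% of all such genes. It was 2 of 5 over whole genes (FANCA and FANCF), 0 of 2 with lists of equal length (against 25.7%) and 0 of 1 with peaks at 1 gene only. When 1 library was left out it was 1 to 15, and the 15, of 18, came without DMSO replicate 2. Apart from those printed beside a count, shares over all genes are not given for these settings. The other counts show only how the number moved. None of the alternatives run gave a gained gene in any mark or a lost gene in H3K4me3.

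The number of repair genes called narrower in H3K4me3 by limma was 10; it was 0 after centring, 12 of 30 at start sites (40.0%, against 22.2% of all genes), and 1 to 20 when 1 library was left out (3.12% to 62.5%, against 6.0% to 46.1% of all genes). With the replicate number as a replicate block it was 19 (59.4%, against 48.3% of all genes), and for H3K27ac and H3K4me1 it stayed at 0. The labels give only a shared number, and the deviations of same-numbered libraries correlated at 0.0298, 0.0121 and 0.0462 (H3K27ac, H3K4me1, H3K4me3), with 2 pairs a mark. For H3K4me1 the count was 0. When 1 library was left out some fits called BLM, and calls over all genes rose in those fits as well. In H3K27ac limma called 0 of 1130 genes, of which 85 had an unadjusted p under 0.05. The causes of these differences were not tested.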
